A study of Mus musculus with 2 samples.

Results

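The salt-inducible kinases examined here are Sik1 and Sik2, 2 of the 15271 genes with predicted microRNA sites in an Ago2 iCLIP experiment on mouse embryonic stem cells. Their rows were found by gene symbol, in any letter case, which gave 213 of 1641948 entries of the site table (164 for Sik1 and 49 for Sik2) and 10 of 6211 enriched clusters, all 10 named for Sik1. The pair was selected on measured values of this library, the Ago2 clusters and site reads, so these numbers are given as a description. iCLIP crosslinks a protein to RNA in living cells, pulls the protein down and sequences the RNA it holds. The tagged group, TT-FHAgo2, is a clonal line with doxycycline-inducible human Ago2 carrying a FLAG-HA tag, and the control group, TT-Ago2, is a clonal line with the same protein untagged. Per the series description a single Argonaute family member is expressed in these cells, and that protein is human in both groups. For both lines the doxycycline dose was 0.1 µg/mL during passage and was raised to 2.5 µg/mL for the last 24 h. Each group had 1 library and is 1 clone, which leaves no replicate error and no p over samples.

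Salt-inducible kinases are serine/threonine kinases related to AMP-activated kinase. The kinase LKB1 (Stk11) switches them on, protein kinase A restrains them, and they phosphorylate CRTC coactivators and class IIa histone deacetylases, which holds these in the cytoplasm. Sik1 is itself a gene that cAMP signalling induces, whereas Sik2 is the family member first described in fat tissue. Argonaute proteins carry microRNAs, which pair with messenger RNA mainly through the seed, bases 2 to 8 of the microRNA, and most of their sites lie in 3' UTRs. The site table lists matches to 50 seeds in 7mer form, to the same seeds in 6mer form, and to 8mers that add an A after the 7mer. It also lists 966 other 8mers, of which 824 match bases 2 to 8 of a mature mouse microRNA in RefSeq followed by A.

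The sequences below are all the listed 7mers and 8mers that Sik1 clusters touched, shown because the clusters and the seeds meet there. Each is read 5' to 3' on the minus strand of mm9, from 1 entry of the site table or from overlapping entries joined, with capitals for matches to listed seeds.
Cluster 2, 3' UTR, chr17:31983005-31983013: TTGCACTGA
Cluster 3, 3' UTR, chr17:31982539-31982549: CTCTGCTGCTA
Cluster 4, 3' UTR, chr17:31982468-31982475: GTGCAATA
Cluster 6, 3' UTR, chr17:31982099-31982105: GTCTACC
Cluster 6, 3' UTR, chr17:31982065-31982071: GTGCCAT
Cluster 7, 3' UTR, chr17:31982028-31982034: CAACCCT
Cluster 9, 3' UTR, chr17:31981618-31981624: TGCACTG
Cluster 9, 3' UTR, chr17:31981590-31981602: gacaAGCACTTTA
Cluster 1, coding sequence, chr17:31988315-31988323: GGCACTTGA
The mature microRNAs whose seeds pair with them are shown from RefSeq (GRCm38.p6 table), 1 per seed, with the seed in capitals.
mmu-miR-148a-3p: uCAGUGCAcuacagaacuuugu
mmu-miR-19b-3p: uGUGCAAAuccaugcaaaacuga
mmu-miR-298-5p: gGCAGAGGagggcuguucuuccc
mmu-miR-16-5p: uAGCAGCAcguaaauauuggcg
mmu-miR-103-3p: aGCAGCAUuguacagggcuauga
mmu-miR-92a-3p: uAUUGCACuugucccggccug
mmu-miR-379-5p: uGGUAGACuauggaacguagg
mmu-miR-183-5p: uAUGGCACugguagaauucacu
mmu-miR-296-3p: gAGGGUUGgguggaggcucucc
mmu-miR-291a-3p: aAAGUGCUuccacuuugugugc
mmu-miR-17-5p: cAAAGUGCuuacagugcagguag
mmu-miR-290a-3p: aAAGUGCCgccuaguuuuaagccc
mmu-miR-26a-5p: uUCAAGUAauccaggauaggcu
The seeds of miR-291a, miR-17 and miR-290a overlap, and the longer stretch in cluster 9 holds both the miR-291a match AGCACTT and the miR-17 match GCACTTTA. The stretch in cluster 2 holds the full 8mer of the miR-148 seed and, shifted by 1 base, only the 6mer TTGCAC of the miR-19 seed. The miR-298 and miR-103 seeds in cluster 3 and the miR-26 seed in cluster 1 are likewise matched as 6mers only. The files name no microRNA, and a match names the microRNAs that could pair there, not the one that did.

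The 2 genes differed in listed expression. Sik1 was listed at 19.8 FPKM in 1 isoform, and Sik2 at 0.378 FPKM in 4 isoforms, near the 0.1 FPKM minimum of the table. In a bulk sample, fewer cells with the transcript and less RNA per cell cannot be told apart. The sample behind the listed FPKM is not identified here, so these values describe the cells of the 2 lines only if measured in them. In the listed values, all 8 markers of embryonic stem cells were present, at 40.3 to 1655 FPKM. Of 16 markers of primitive endoderm, trophectoderm, neural and mesoderm lineages and fibroblasts, 8 were listed. The 7 of these other than the fibroblast gene Vim (45.0 FPKM) were at 0.101 to 3.95 FPKM. The tagged library gave 789000 reads behind the site values. Untagged counts were worked back from the authors' log2 enrichment to whole numbers, with unknown depth and scaling.

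Ago2 clusters were spread along the Sik1 3' UTR but covered only part of it. The 10 clusters of Sik1 held 165 tagged reads against 2 untagged, and 9 of them, with 160 reads, lay in the 3' UTR. These 9 spanned 1613 nt, from chr17:31981427 to chr17:31983039, and covered 533 nt of it. Over all genes of the site table, 2613 of 15271 (17.1%) had at least 1 cluster. Among the 2830 gene names with a cluster, 1656 (58.5%) had 1 only and 43 (1.52%) had 10 or more. By number of clusters Sik1 was at rank 31, a place shared by 13 names, and by reads in clusters it was at rank 14.

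Most genes expressed at the level of Sik1 had no cluster. By listed FPKM Sik1 was at rank 3431 of the 15271 genes. Among the 3516 genes listed within 2-fold of its level (9.92 to 39.7 FPKM, Sik1 included), 964 (27.4%) had a cluster, 10 had more clusters and 4 had more reads in clusters. Sik1 was chosen with these counts in view, so the ranks are descriptions.

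**Figure D1:**
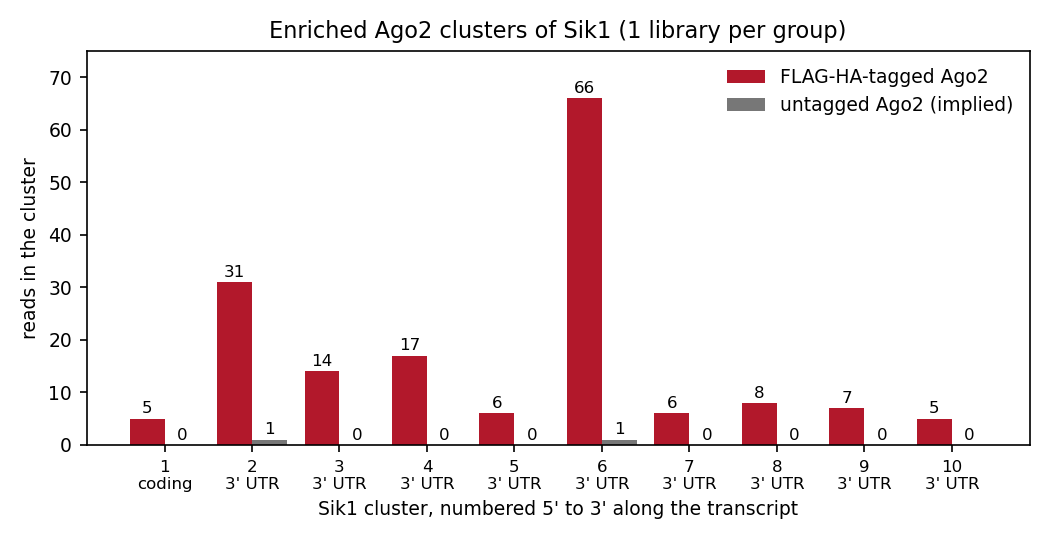
Reads in each of the 10 enriched Sik1 clusters, numbered 5' to 3' along the transcript on the x axis, with reads per cluster on the y axis for the tagged library and for the untagged library (number implied by the authors' enrichment). Bars are single libraries without error. Cluster 6 held 66 tagged reads and cluster 2 held 31, each against 1 untagged, and the other 8 held 5 to 17 against 0.

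The reads of Sik1 were uneven between clusters. Cluster 6, on chr17:31982068-31982230, was 163 nt wide and held 66 tagged reads against 1 untagged. That is a 66-fold ratio of raw counts with an exact 95% interval of 11.4 to 2646, which covers counting error only. The authors' log2 enrichment, in which 1 is added to each count, was 5.07, below the log2 of this ratio. The authors' binomial p, which compares the reads of the 2 libraries, was 4.6079e-19, at rank 23 of the 6211 clusters. It is the value for an even split of reads between the libraries. Both the ratio and this p depend on the depth and scaling of the untagged library, which are unknown. The authors' crosslink height was 10 events at the leading position or positions of cluster 6. Cluster 2, on chr17:31982980-31983039, held 31 reads against 1, a ratio of 31.0 with an exact interval of 5.17 to 1263. The authors' log2 enrichment there was 4.0 and their binomial p was 7.6834e-09. Together clusters 6 and 2 had 58.8% of the reads in Sik1 clusters, and each stood above the median of 7 reads over all clusters.

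The next 2 clusters by reads lay downstream of the 31-read cluster, across 394 nt without a cluster, the widest such gap in the 3' UTR. Cluster 4 (chr17:31982432-31982488) held 17 reads against 0, at least 5.67-fold over a floor of 3 untagged counts per cluster. Cluster 3 (chr17:31982522-31982585) held 14 against 0, at least 4.67-fold. The 4 largest clusters together had 128 of the 165 reads (77.6%).

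The other 6 clusters were close to the smallest size the file holds, which is 5 reads. They had 37 reads in all against 0 untagged. In the 3' UTR, cluster 8 (chr17:31981625-31981670) had 8 reads, cluster 9 (chr17:31981576-31981619) had 7, clusters 5 (chr17:31982215-31982241) and 7 (chr17:31981988-31982039) had 6 each, and cluster 10 (chr17:31981427-31981462) had 5. Cluster 5 overlaps cluster 6 by 16 nt. Cluster 1, the only one in coding sequence, lay upstream on chr17:31988302-31988342 with 5 reads. A cluster of 5 reads against 0 has an authors' p of 0.0313. At p under 0.01, 6 of the 10 clusters remained, with 143 of the 165 reads. Clusters 5 and 7, which dropped out at an authors' binomial p of 0.0156, were at rank 3172 of all 6211 clusters by p. That is near the middle, so keeping 6 of 10 does not set Sik1 apart from clusters in general. Over all genes, 10.5% kept at least 1 cluster, which is a share of genes and not of clusters.

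Sik1 clusters lay in part over listed seed matches. Of the 10 clusters 7, holding 146 reads, touched a 7mer or 8mer of a listed seed, against 34.2% of the 5993 clusters over all genes. In the 3' UTR they were 6 of 9, against 46.3%. Cluster 6 gave 66 of the 146 reads, and its coverage was highest at other 8mers, not at its listed matches. Cluster 5 held only the 6mer AACCTC, and clusters 8 and 10, with 13 reads, held none of the listed matches. Seen from the sites, 10 of the 28 distinct 7mers and 8mers of Sik1 (35.7%, exact 95% interval 18.6 to 55.9) touched a cluster on the same strand, where the share over all genes was 1.38%. They were 9 of 17 in the 3' UTR and 1 of 11 in coding sequence. Of the 10, 8 lay wholly inside a cluster. Reads at a site are the authors' coverage there; neighbouring sites share reads, and over which window the authors counted is unknown. Of 29 Sik1 sites lying wholly inside a cluster, 9 (31.0%) had more reads than the cluster and 12 had the same number. Over all genes, 3695 of 8056 such sites (45.9%) had more reads than their cluster.

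The strongest listed site was the match to the seed shared by miR-148a-3p and miR-152-3p in cluster 2. TGCACTGA at chr17:31983005-31983012 had 31 reads (39.3 rpm, reads scaled to library depth) and a PhastCons score of 0.9805, on a scale of 0 to 1 for conservation between species. The miR-19 6mer TTGCAC that overlaps it shares those 31 reads, so the 2 seeds cannot be separated there. Another match of this seed, TGCACTG at chr17:31981618-31981624, lies across the edge of cluster 9 and had 7 reads and a score of 0.0001. All 3 Sik1 matches of this seed family carried a read, including the coding 6mer GCACTG with 2 reads. The share was 63.0% over all listed Sik1 sites and 17.1% over this family in all genes.

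The miR-16-5p and miR-92a-3p matches were next among 7mers and 8mers. GTGCAATA in cluster 4, the 8mer of the miR-92a-3p seed, had 18 reads and a PhastCons score of 0.0165. TGCTGCTA in cluster 3, the 8mer of the miR-16-5p seed, had 17 reads and a score of 0.7174. In the same stretch the 6mer TGCTGC of the miR-103-3p seed had 17 reads and CTCTGC, the 6mer of the miR-298 seed, had 19. Of 5 Sik1 sites of the miR-16-5p family, 3 had a read, where the share was 63.0% over all listed Sik1 sites and 15.8% over this family in all genes.

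Some matches of the stem cell microRNA seeds carried reads, at modest depth. In cluster 9, AGCACTT (seed of miR-291a-3p, miR-294-3p and miR-302b-3p) and GCACTTTA (seed of miR-17-5p and miR-93-5p) shared 7 reads, with PhastCons scores of 0.9873 and 0.9958. In coding sequence, GGCACTT (miR-290a seed) at chr17:31988317-31988323 had 5 reads in cluster 1 and a score of 0.9907. Over all genes this family, which joins AGCACTT and GGCACTT, had a read at 35.9% of its sites, the highest share of any seed family found in Sik1. A GCGGCAC match (miR-293 seed) in coding sequence had 2 reads outside any cluster. The coding 6mer CACTTT of the miR-17 seed, at chr17:31986590-31986595, had 0 reads.

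Some listed matches of Sik1 had no read. The miR-27 seed match ACTGTGA and its 8mer and 6mer forms occur 6 times in Sik1, and all 6 had 0 reads. Over all genes 10.6% of miR-27 sites had a read. The set includes ACTGTGAA in the 3' UTR (PhastCons 0.9019) and 3 coding 7mers with scores of 0.9194 to 0.9966. The rest are coding 6mers with scores of 0.0140 and 0.0013. In Sik1 coding sequence 20 of 44 listed sites had a read. In the 3' UTR the miR-23 match AATGTGA (PhastCons 0.8553) and the miR-200 match CAGTATTA (0.1920) also had 0 reads. For a single site, 0 reads allow an expected number of up to 3.

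The highest coverage in Sik1 was not at a listed seed. Inside cluster 6 the other 8mers GTGGTGAA (chr17:31982174-31982181), TGTCCCCA (chr17:31982187-31982194) and TGTACAGA (chr17:31982143-31982150) had 87, 70 and 38 reads. The listed matches in that cluster had fewer: 19 at the 6mer TCAGGG, 16 at the miR-379 match GTCTACC, 12 at AACCTC and 8 at GTGCCAT of miR-183, which lies at its edge. By RefSeq, GTGGTGAA is the 8mer of miR-5622-5p, TGTCCCCA that of miR-7000-5p and miR-3062-3p, and TGTACAGA that of let-7g-3p. With 87 reads (110 rpm), GTGGTGAA was at rank 52 of the 149276 distinct sites with a read. The authors' log2 coverage, which also scales by expression, was 4.06 there (rank 106) and 2.57 at TGCACTGA (rank 1080). PhastCons scores at GTGGTGAA, TGTCCCCA and TGTACAGA were 0.0026, 0.0081 and 0.0006.

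**Figure D2:**
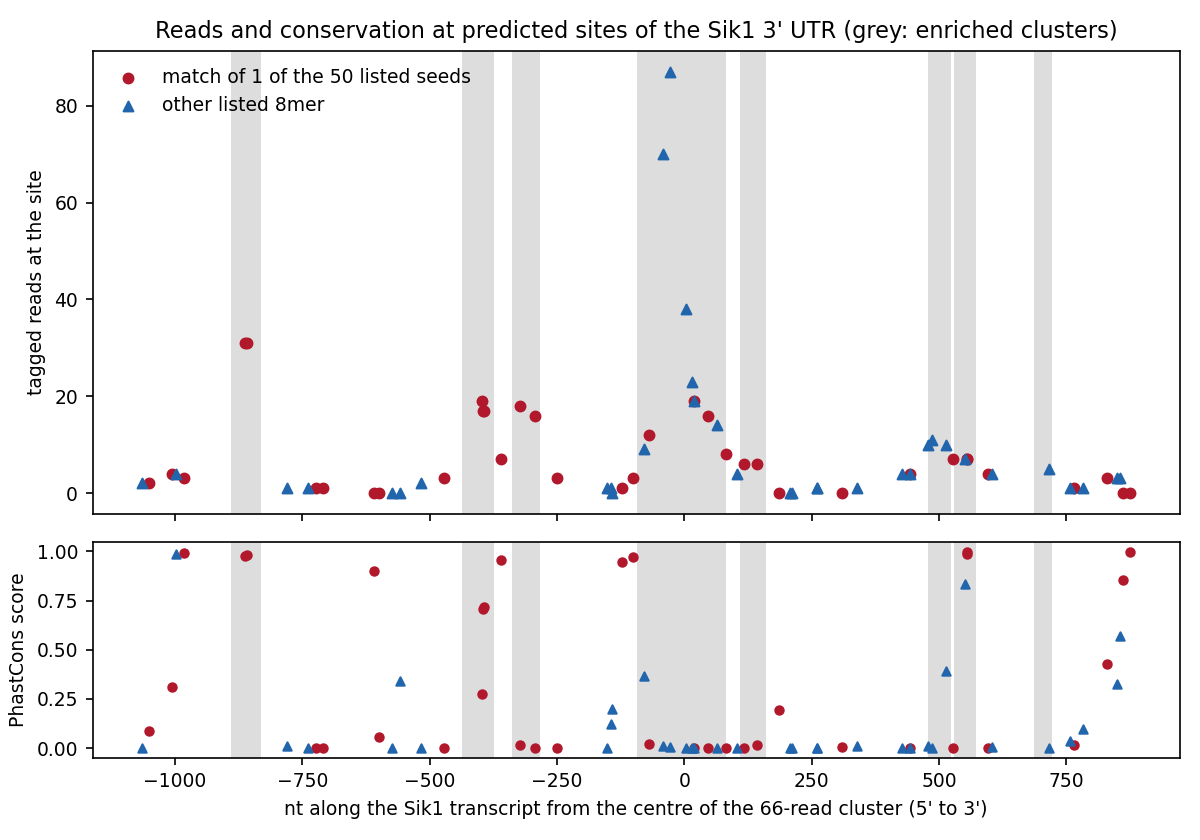
Upper panel, tagged reads at each distinct predicted site of the Sik1 3' UTR, and lower panel, the PhastCons score of the same sites, against position in nt from the centre of the 66-read cluster, 5' to 3'. Circles are matches to the 50 listed seeds, triangles are other 8mers and grey bands are enriched clusters. The highest point, 87 reads, is another 8mer with a PhastCons score near 0, and the pair of circles at 31 reads has scores near 1.

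Sik1 sites with high and with low conservation both carried reads. Of the 36 listed 3' UTR sites, 10 had a PhastCons score of at least 0.9, and 8 of these had a read, with a median of 5 reads. Another 19 had a score under 0.1, and 17 of these had a read, with a median of 4 reads. Clusters touched 4 of the 10 and 9 of the 19. These sites share 1 transcript and in part the same reads, so no test was made between them.

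Read coverage was broad in the Sik1 3' UTR, and similar at listed and other matches. Reads were present at 30 of 36 listed sites (83.3%, exact 95% interval 67.2 to 93.6), where the share over all genes was 16.8%. The other 8mers carried reads at 30 of 35 (85.7%, 69.7 to 95.2), against 12.2% over all genes. By match type the shares were 16 of 19 for 6mers, 10 of 11 for 7mers and 4 of 6 for 8mers. Over all genes they were 15.5%, 19.7% and 21.1%. Sites of different types share reads in part, so the types were not tested against each other. In Sik1 coding sequence reads were fewer, at 20 of 44 listed sites (45.5%, 30.4 to 61.2), against 11.6% over all genes, and 5 was the highest number there. Of 2766 genes with at least 5 listed 3' UTR sites and expression within 2-fold of Sik1, 34 had a higher share of sites with a read, and the middle 50% of genes lay between 6.67% and 36.4%.

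Sik2 had almost no Ago2 reads. None of the 6211 clusters carried its name, a common result at its expression: of 2596 genes listed within 2-fold of it, 117 (4.51%) had a cluster. Of its 24 distinct listed sites 2 had a read (8.33%, exact 95% interval 1.03 to 27.0), both in the 3' UTR, against 10.9% over all genes and regions. Of its 25 other 8mers 1 had a read. These 3 sites had 1 read each: the 7mer ACACTAC at chr9:50701004-50701010, the 6mer AACCCT at chr9:50700990-50700995 and the 8mer TGCCCCCA at chr9:50701149-50701156. In the 3' UTR alone 2 of 9 listed sites of Sik2 had a read (22.2%, exact 95% interval 2.81 to 60.0). Among 1240 genes within 2-fold of its expression and with at least 5 listed 3' UTR sites, 84 had a higher share. The median of these genes was 0% and the upper quartile 5.26%. The Sik2 share was thus high for its expression, but it rests on 2 sites with 1 read each. The 14 listed sites in the Sik2 coding sequence had 0 reads. That allows a share of up to 21.4% by a floor of 3 counts, or 23.2% as the exact upper limit.

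Both listed seeds with a read in Sik2 also had reads in Sik1. In Sik1, 30 of the 36 listed 3' UTR sites (83.3%) carried a read, so an overlap of this kind says little about the pair. The 2 Sik2 sites lie close together, and their single reads may be the same read. AACCCT is the 6mer of the miR-296-3p seed shown above, whose 7mer CAACCCT had 6 reads in Sik1 cluster 7, 4 reads at chr17:31981549-31981555 and 0 reads at a coding site. ACACTAC pairs with the seed of miR-142a-3p, shown here with the seed in capitals.
mmu-miR-142a-3p: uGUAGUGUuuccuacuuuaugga
In Sik2 the ACACTAC match had 1 read and a PhastCons score of 1. In Sik1 it occurs at chr17:31982268-31982274 (score 0.9480) and chr17:31981382-31981388 (score 0.0169), with 1 read each and no cluster. Because the authors' log2 coverage divides by a power of expression, the same single read stands at -1.01 in Sik2 and at -2.38 in Sik1. In raw reads the 3 ACACTAC sites were equal, and 1 read gives no order between the genes.

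**Figure D3:**
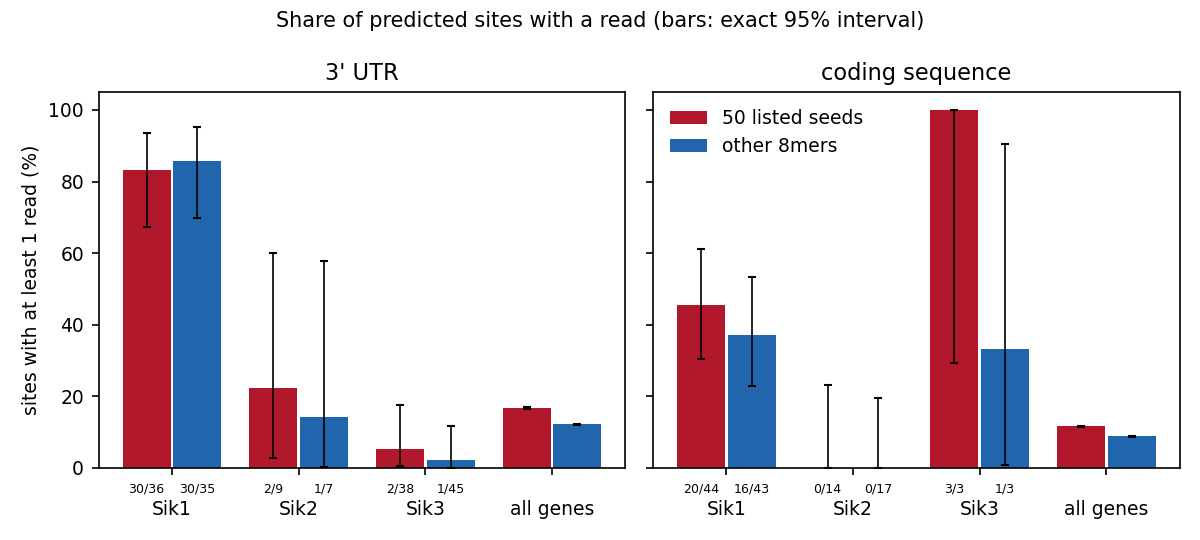
Share of distinct predicted sites with at least 1 tagged read in percent (y axis) for Sik1, Sik2, Sik3 and all genes (x axis), in 3' UTRs (left) and coding sequence (right), for the 50 listed seeds and for other 8mers. Lines are exact 95% binomial intervals for counting error, and the small figures are sites with a read over sites. Sik1 stands at 83.3% and 85.7% in the 3' UTR, and Sik2 at 22.2% and 14.3% with wide intervals.

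The third family member, Sik3, had few reads. Listed at 7.39 FPKM, it had no cluster, and reads at 6 of 42 listed sites (14.3%, 5.43 to 28.5) with at most 2 at a site. In its 3' UTR 2 of 38 sites had a read (5.26%, 0.644 to 17.7). The 3' UTR values of Sik1 (30 of 36) and Sik2 (2 of 9, or 22.2%) stand beside that of Sik3 as a description. The genes were selected on such reads, and neighbouring sites share them. Of 3959 genes within 2-fold of Sik3's expression, 869 (21.9%) had a cluster.

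The other genes of the pathway were taken from a list of 45. Of the 40 in the site table, 13 (32.5%, 18.6 to 49.1) had a cluster, against 17.1% of all genes, and their median listed expression was 7.19 FPKM against 4.59 FPKM. The median number of clusters was 0 for the list and for all genes. Upstream of the kinases, Stk11, the LKB1 kinase that activates them, was listed at 23.9 FPKM with 2 clusters in the 3' UTR (17 tagged reads against 0). Of 5 genes of the LKB1 complex, 2 had a cluster.

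Among the substrates and their partners, Mef2a, a transcription factor that class IIa deacetylases repress, had the most, 5 clusters in the 3' UTR with 92 reads against 4. Hdac4, one of those deacetylases, had 3 clusters with 44 reads against 0 at 1.11 FPKM, and 2 of them, with 36 reads, were in the 5' UTR. Of 8 CRTC coactivators and partners 1 had a cluster, the acetyltransferase gene Ep300 with 2 in coding sequence (10 reads against 0). Crtc1, Crtc2 and Crtc3, the coactivators that salt-inducible kinases phosphorylate, had none, at 3.88, 4.72 and 0.364 FPKM. Atf1, a CREB-type factor at 17.7 FPKM, had none.

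Of 6 protein kinase A genes 1 had a cluster. The regulatory subunit gene Prkar2a had 3 (28 reads against 0), 2 of them downstream of the gene and 1 in an intron, with none in its 3' UTR. The catalytic subunit gene Prkaca (47.4 FPKM) and the regulatory subunit gene Prkar1a (45.1 FPKM) had none. Among the 8 AMPK-related kinase genes with listed sites, 3 had a cluster, 1 each in Nuak1, Mark2 and Mark3 with 6, 13 and 7 reads. Prkaa1, an AMPK catalytic subunit gene on the list, has no entry in the site table and is outside this count, and it had 1 cluster in the 3' UTR with 8 reads against 0. The 14-3-3 genes, whose proteins bind phosphorylated CRTC and deacetylases, had clusters in 4 of 7 and were the most expressed group (median 130 FPKM). Ywhae and Ywhag had 2 clusters and 14 reads each, against 0, whereas Ywhaq (196 FPKM) and Ywhah (130 FPKM) had none. No gene of the list reached the 10 clusters and 165 reads of Sik1.

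**Figure D4:**
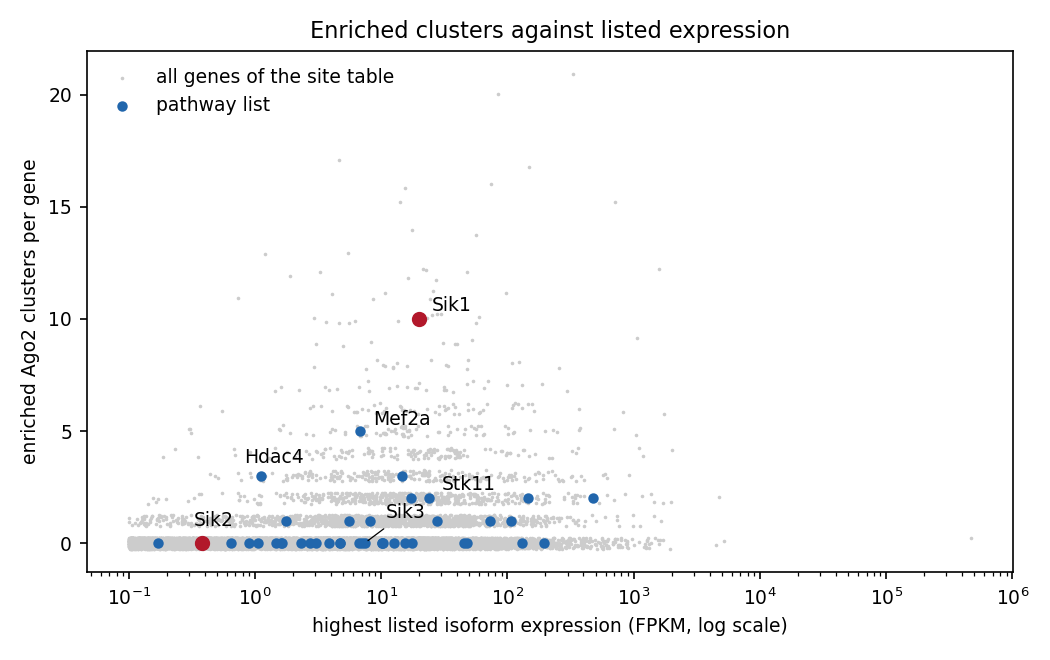
Number of enriched Ago2 clusters per gene (y axis) against the highest listed isoform expression in FPKM (x axis, log scale). Grey points are all 15271 genes of the site table with a small vertical jitter, blue points the pathway list and red points Sik1 and Sik2. Sik1 stands at 10 clusters and 19.8 FPKM, Sik2 at 0 clusters and 0.378 FPKM, and Mef2a at 5 clusters is the highest of the list.

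The distribution of Sik1 reads over seed families was set beside other genes by cosine similarity, which is 1 for identical proportions. Among 1656 genes with at least 20 reads at listed 3' UTR sites, the 3 most like Sik1 (277 site reads) were Eif2c2, Zmym2 and Atg14, at 0.75, 0.73 and 0.71. Eif2c2 is the older symbol of the mouse Ago2 gene, Zmym2 encodes a zinc finger protein and Atg14 an autophagy factor. They had 30, 31 and 31 such reads and 3, 3 and 1 clusters. The leading family was the miR-148a-3p match TGCACTG in Eif2c2 and Atg14 and CCTCTGC of miR-298 in Zmym2. Site reads are shared by overlapping families, and the measure rests on 48 families in 1 library. Sik2, with 2 such reads, was below the minimum and was not compared.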

How the data were processed

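Files of the tagged library were analysed, and the untagged library entered only through the authors' enrichment values. Bowtie, TopHat, mm9 and NCBIM37 appear in the submitters' processing notes with neither role nor version, and no source used here gives the cluster caller. Peak height per cluster is a deposited signal in whole reads. The authors joined tagged reads, log2 enrichment and a binomial p in 1 field, from which the untagged number was recovered as a whole number. Coverage per site is in rpm as scaled by the authors, and all 1641948 values (100%) were whole multiples of 1.27 rpm within 0.001, so reads were recovered; with 1 library per group no count test was run. Expression is FPKM per the file headers, from a sample not identified here. The deposited log2 coverage equals log2 rpm with a slope of -0.24 on log2 FPKM and an offset of -1.69. PhastCons is a deposited conservation score.

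Entries with the same position, strand and sequence were counted once, and 27348 listed matches inside a longer match of the same seed were left out. A site touched a cluster when they shared 1 nt or more on the same strand; 216 splice-junction clusters and 2 over 200 nt wide were left out of this step. Gene expression was the highest listed FPKM. Intervals are exact (Clopper-Pearson, 95%) and cover counting error only, since reads were not checked for duplicates. They treat sites as independent, although neighbouring sites share reads. Coordinates are 1-based on mm9. Scripts (Python 3.11.15, pandas 2.3.3, scipy 1.17.1) were tested on simulated data. Genes named in the pathway list are those with the most clusters (ties included) and the highest FPKM without one, beside Sik3 and Stk11; the Crtc genes, Prkaa1, Nuak1, Mark2 and Mark3 were added after their values were seen. The members, lists and rules were chosen with earlier results of these data known.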

Additional observations from a re-analysis of the deposited data

How the results depend on the processing

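There were 38 alternative settings for the cluster, read and site results of Sik1, Sik2 and the pathway list. Of these, 29 left the value within 1.5 times the reported count or inside the reported interval. The 29 include settings that could not change the result. Sik2 had no cluster, so its cluster results were 0 under every setting. Its 24 listed entries are also its 24 distinct sites, so keeping repeats or nested matches changed nothing. The 10 clusters of Sik1 became 6 at p under 0.01 and 6 when clusters within 50 nt were merged. Its 165 reads in clusters became 68 when only clusters without an untagged read were kept, since the 2 largest each had 1. The share of its listed sites with a read, 63.0% over all regions, was 83.3% in the 3' UTR alone, 45.7% at 2 or more reads and 23.5% inside a cluster. For Sik2 the share of 8.33% fell to 0 both at 2 or more reads and inside a cluster. Genes of the pathway list with a cluster numbered 8 of 40 at p under 0.01, in place of 13, an alternative chosen after seeing the data. Over all genes the share with a cluster was 10.5% at p under 0.01, in place of 17.1%. No paired analysis was possible because each group had 1 library. With 1 read worth 1.27 rpm, sites of low expression such as those of Sik2 rest on single reads.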
